A study of Mus musculus with 8 samples.

Results

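Intron CGs were defined as autosomal CG cytosines that lie inside a protein-coding gene but in no annotated exon, more than 1000 bp from the start of any protein-coding gene, and that were read at least 10 times in every one of 8 mice. This gave 41473 cytosines in 6889 genes, out of 173739 autosomal CG cytosines with that coverage. The remainder comprised 59862 promoter CGs (within 1000 bp of a gene start), 16802 CGs in coding exons, 45735 intergenic CGs and 9867 CGs of other kinds, such as those in untranslated exons and in non-coding genes. Each strand of a CG was a separate cytosine, and 359 of the 41114 CG positions were covered on both strands. Distance from the gene start had a median of 31036 bp and ran from 1001 to 4286531 bp, and 47.3% of the cytosines lay in the first intron of at least 1 transcript of their gene.

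The livers came from C57BL/6J mice (B6), DBA/2J mice (DBA), and the F1 mice of both reciprocal crosses. BXD mice (C57BL/6JxDBA/2J) had a B6 mother and DXB mice (DBA/2JxC57BL/6J) a DBA mother. One female and 1 male of each were studied, all 16 weeks old and fasted for 16 h according to the methods of the study, with no other treatment. Methylation was measured by reduced representation bisulfite sequencing (RRBS), which reads the ends of DNA fragments cut at CCGG by the enzyme MspI, and the level of a cytosine is the percentage of its reads that were methylated. With a single mouse per strain and sex, strain and sex comparisons rest on the 8 mice together, and their p-values measure the spread among these mice.

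Most CGs in the body of mammalian genes carry methyl groups, whereas CpG islands, the CG-dense stretches at many promoters, are largely free of methylation. Introns also hold enhancers and alternative promoters, where methylation is often low. In imprinted genes, copies from the mother and from the father carry different methylation, so that reads of both copies together give an intermediate level.

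Library depth differed among the mice. Autosomal CGs with at least 10 reads numbered 515372 (DBA male) to 1191980 (B6 female), and the median reads per intron CG ran from 34 in the DBA female to 178 in the BXD male. Covered CGs reached 99 bases from the MspI cut (the 99th percentile) in the B6 female, the DBA female and the BXD male, 75 bases in the B6 male and the DBA male, and 50 bases in the BXD female, the DXB female and the DXB male. Of the cytosine calls in reads sorted to a strain by a SNP, 83.9% were B6 in the B6 male and 99.7% in the B6 female. The strain and sex counts over the 8 mice are therefore also given without the B6 male.

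Sequences of 5 intron stretches are shown because they span the states of methylation found in introns. A stretch is a run of intron CGs of 1 gene with gaps of at most 200 bp. Sequences are from the plus strand of NCBIM37 (mm9), 5′ to 3′, and capitals mark the CGs that were measured. *Ntm*, which encodes a neural adhesion molecule, and *Dync1i1*, which encodes a dynein intermediate chain, hold stretches with hardly any methylation (chr9:29219897-29220099 and chr6:5955867-5956063).
Ntm: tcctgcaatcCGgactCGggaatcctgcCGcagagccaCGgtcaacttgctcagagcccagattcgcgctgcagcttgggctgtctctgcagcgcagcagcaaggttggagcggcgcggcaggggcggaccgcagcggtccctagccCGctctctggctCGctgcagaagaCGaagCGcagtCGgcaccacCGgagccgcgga
Dync1i1: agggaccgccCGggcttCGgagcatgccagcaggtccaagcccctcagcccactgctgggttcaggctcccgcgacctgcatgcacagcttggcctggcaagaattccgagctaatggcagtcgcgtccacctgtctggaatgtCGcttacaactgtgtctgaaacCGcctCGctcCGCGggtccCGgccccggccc
*Cacna2d2*, a calcium channel subunit gene, and *Gnas*, the imprinted gene of a G protein alpha subunit, hold stretches with intermediate averages (chr9:107381886-107382096 and chr2:174111052-174111235).
Cacna2d2: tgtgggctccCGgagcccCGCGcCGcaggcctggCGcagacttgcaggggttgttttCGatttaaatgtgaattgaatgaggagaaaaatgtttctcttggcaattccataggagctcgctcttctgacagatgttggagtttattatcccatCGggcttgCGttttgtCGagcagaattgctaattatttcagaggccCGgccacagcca
Gnas: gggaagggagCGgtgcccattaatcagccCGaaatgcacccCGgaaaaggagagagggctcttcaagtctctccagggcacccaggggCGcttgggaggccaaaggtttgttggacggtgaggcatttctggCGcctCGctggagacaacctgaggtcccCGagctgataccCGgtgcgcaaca
*Pkhd1*, the gene of the membrane protein fibrocystin, holds a CG-rich stretch that was highly methylated (chr1:20477022-20477293). It is the farthest from its gene start among short stretches of at least 8 highly methylated CGs whose sequence has a stop codon in every reading frame. The window begins and ends with nearly the same run of bases, and all its measured CGs lie in these runs. Whether it belongs to a repeat element was not examined.
Pkhd1: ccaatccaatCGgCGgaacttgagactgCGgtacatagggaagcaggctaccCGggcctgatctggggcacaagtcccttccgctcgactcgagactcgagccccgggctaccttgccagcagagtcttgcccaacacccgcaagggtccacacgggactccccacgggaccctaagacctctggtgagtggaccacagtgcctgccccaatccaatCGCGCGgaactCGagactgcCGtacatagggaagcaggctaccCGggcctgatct
These windows have 21 CGs in 203 bases in *Ntm*, 15 in 197 in *Dync1i1*, 11 in 211 in *Cacna2d2*, 10 in 184 in *Gnas* and 18 in 272 in *Pkhd1*.

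The mean level of intron CGs was 64.1% ± 0.586 (SD, n = 8 mice). Among the parents the values for female and male were 64.9% and 63.7% in B6, and 64.1% and 63.3% in DBA. Among F1 mice they were 64.9% and 64.0% in BXD, and 64.2% and 63.5% in DXB. The mice thus differed by less than 2 points in this average, and strains overlapped. The female was above the male in each strain or cross, a difference that was not tested. Liver DNA holds several cell types, and a shift in their shares cannot be told apart from a change within cells. The average hid 2 opposite states: the median CG was at 81.5%, 21399 CGs (51.6%) averaged at least 80% over the mice, 6162 (14.9%) averaged at most 10%, and 13912 (33.5%) lay between.

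Intron CGs were more methylated than those of coding exons and much more than those of promoters, and slightly less methylated than intergenic CGs. Within mice, intron CGs exceeded promoter CGs by 57.3 points ± 1.54 (SD, n = 8) and CGs of coding exons by 5.64 ± 0.383, in 8 of 8 mice. They were below intergenic CGs by 2.32 points in the mean (difference -2.32 ± 0.245), in 8 of 8 mice. Each of the 3 differences had p = 0.0078125 in the exact two-sided paired permutation test over mice, also after adjustment, which is the smallest p that 8 mice allow. The small differences depended on the definition. With CGs averaged per gene first, introns were below coding exons by 1.16 points (difference -1.16), and beyond 1000 bp from any annotated transcript start they were above intergenic CGs by 3.57 points, each with exact p = 0.0078125.

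Levels rose with distance from the gene start in every mouse. At 1-2 kb the 3635 intron CGs averaged 20.6% ± 1.21 (SD, n = 8), from 19.3% in the BXD male to 22.4% in the B6 male. At 2-5 kb the average was 45.7% ± 0.588, at 5-10 kb 61.1% ± 0.524 and at 10-20 kb 66.3% ± 0.791. The average at 20-50 kb was 4.71 points higher again, and it reached 73.0% ± 0.737 at 50-100 kb and 75.5% ± 0.790 beyond 100 kb. The steps between neighbouring bins were thus steep up to 10 kb (25.2 and 15.3 points) and smaller beyond 20 kb (2.02 and 2.52 points). All 6 steps went up in 8 of 8 mice (exact permutation p = 0.0078125 each, adjusted p the same). With reads pooled over CGs, the step from 10-20 to 20-50 kb was -0.482 points (exact permutation p = 0.648) and the next step 6.74 points. The last 2 steps were 0.180 and 4.04 points with at least 20 reads, and 1.04 and 1.91 points with CGs averaged per gene. Among CGs beyond 1000 bp from any transcript start, the last step turned slightly downward (-0.208 points, exact permutation p = 0.0078125).

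**Figure D1:**
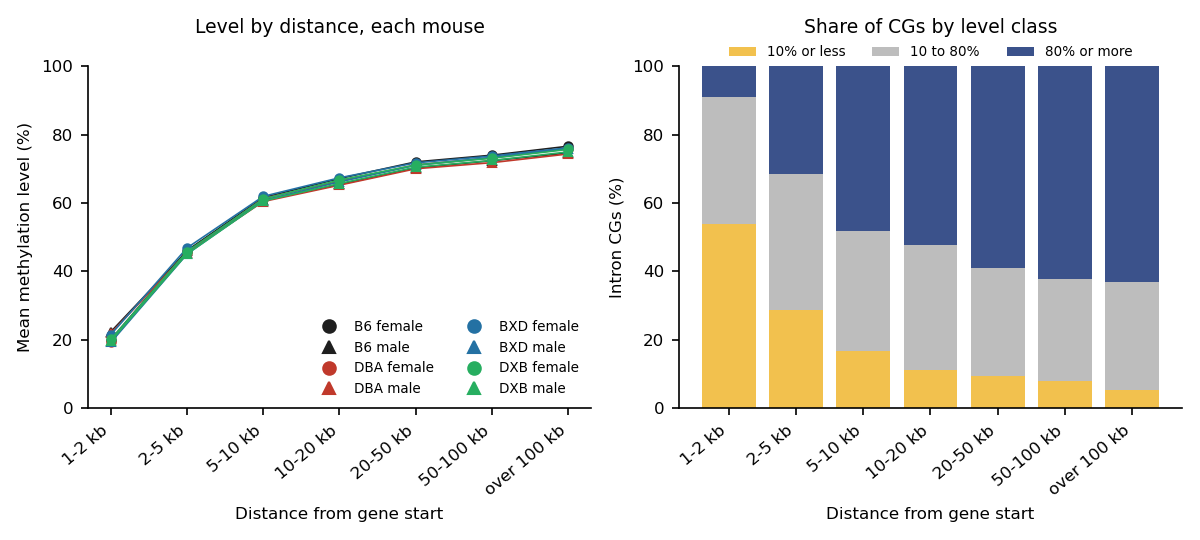
Left, mean methylation level (%) of intron CGs by distance from the gene start, 1 line per mouse, with colour for strain and symbol for sex. Right, share (%) of intron CGs whose mean over the 8 mice is 10% or less, between, or 80% or more. All 8 lines rise together from 19.3 to 22.4% at 1-2 kb to 74.4 to 76.6% beyond 100 kb, and the share at 10% or less falls from 54.0% to 5.25%.

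The rise was a change in the mixture of states. At 1-2 kb 54.0% of the intron CGs were at 10% or less and 9.05% at 80% or more, while beyond 100 kb 5.25% were at 10% or less and 63.1% at 80% or more. CG density fell in parallel, from 10.4 CGs within 100 bases of the cytosine at 1-2 kb to 5.18 beyond 100 kb. Levels rose with distance within each of 4 classes of density too, although density was not matched inside a class. Among CGs with 9 to 12 CGs in that window, levels beyond 20 kb averaged 61.8% and exceeded those at 1-5 kb by 47.9 points ± 1.40 (SD, n = 8). The difference was 17.5 ± 0.645 points at 1 to 4 CGs, 34.2 ± 1.22 at 5 to 8 CGs, and 9.40 ± 0.439 at 13 or more, where levels were 5.06% near the start and 14.5% far from it. All 4 were positive in 8 of 8 mice (exact permutation p = 0.0078125).

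Density itself separated the levels. CGs with 1 to 4 CGs in the window averaged 77.2%, those with 5 to 8 averaged 68.5%, those with 9 to 12 averaged 41.4%, and those with 13 or more averaged 8.66%. The gradient was also found within single genes. In 649 genes with CGs in both ranges, CGs beyond 20 kb averaged 76.8% and those at 1-5 kb 41.9%, a difference of 34.9 points ± 0.998 over mice (exact permutation p = 0.0078125), and 506 of the genes were higher far from the start.

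First introns were less methylated than later ones. They averaged 52.1% and later introns 74.8%. At 1-5 kb first introns were at 29.3% and later ones at 50.9%, and beyond 20 kb at 64.9% and 78.0%. The 6518 intron CGs within 1000 bp of some other annotated transcript start averaged 29.0%, against 70.6% for the others, and beyond 20 kb the values were 36.9% and 77.4%. Intron CGs 1-50 bp from an exon averaged 50.7%, and those over 1000 bp from an exon 72.0%. These contrasts are given as descriptions, since introns, densities and starts overlap, and since first introns lay nearer the start within these ranges (90.1% of CGs at 1-2 kb and 70.8% at 2-5 kb).

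Most long intron stretches were unmethylated, and some of these lay deep inside genes. Of 17537 intron stretches, 374 held at least 8 CGs. Of these, 221 (in 205 genes) averaged at most 10% in all 8 mice, and 39 averaged at least 80% in all 8 mice. The low stretches lay at a median distance of 4316 bp. They had a median of 16.5 CGs in the window of 100 bases on each side and the high ones 7. Within 1000 bp of an annotated transcript start lay 132 of the 221 low stretches (59.7%) and 4 of the 39 high ones (10.3%), against 177 of all 374 (47.3%). More than 20 kb into the gene lay 68 low stretches and 50 of these were within 1000 bp of a transcript start.

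The low stretch farthest from its gene start was in *Ptprd*, a receptor tyrosine phosphatase gene, 1761459 bp in, where the 8 mice ran from 0.923% (DBA female) through a median between 1.57 and 1.78% to 3.94% (B6 male). It lies 324 bp from an annotated transcript start. The *Ntm* stretch shown above, 550637 bp from the gene start and 118 bp from another transcript start, ran from 1.64 to 3.30%. *Schip1* (428964 bp), *Rbfox3*, a neuronal splicing factor gene (342369 bp), *Prkag2*, a gene of the energy sensor AMPK (191891 bp), and *Ank2*, an ankyrin gene (182965 bp), had similar stretches, and no mouse exceeded 7.82% in any of them.

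*Runx1*, which encodes a transcription factor of blood cell formation, held a pair of low stretches of 16 and 18 CGs, 128390 and 127068 bp from its start. Their averages were 3.81% ± 1.07 and 3.91% ± 1.75 (SD, n = 8). The *Dync1i1* stretch shown above differed from most of these in that the nearest annotated transcript start was 28484 bp away. It ran from 1.32% in the DBA female to 5.91% in the B6 male. A stretch of 19 CGs assigned to the model Gm20388 averaged 1.80% ± 0.862, but that model spans 4.43 Mb of chromosome 8 and encloses 72 other protein-coding genes. Its 500 intron CGs (1.21% of all) rest on this model, and without them the mean level of intron CGs was 64.1%. The *Pkhd1* stretch stood at the other extreme at a CG density close to that of *Dync1i1*, from 82.3% in the DXB female to 98.0% in the B6 male. Its measured CGs lie in a run of bases that recurs within the window, so the stretches differ in more than level. Its 3 lowest values were those of the 3 mice whose covered CGs reached 50 bases.

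**Figure D2:**
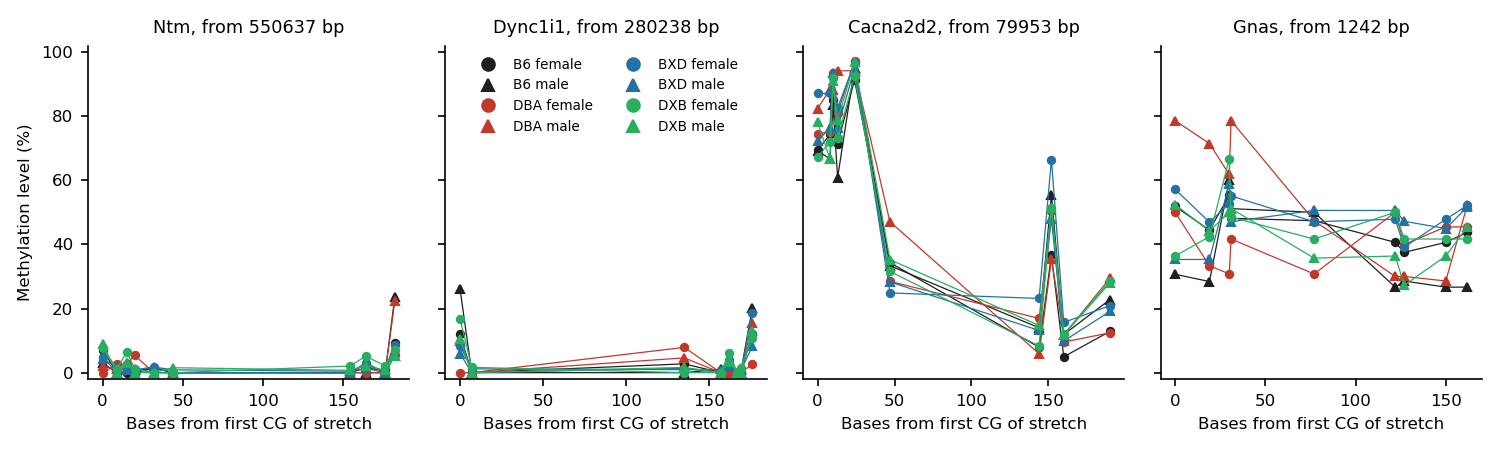
Methylation level (%) of each CG along 4 intron stretches, against bases from the first CG of the stretch, 1 line per mouse (colour for strain, symbol for sex). The title gives the distance of the stretch from its gene start. *Ntm* and *Dync1i1* stay low in all 8 mice, the CG means in *Cacna2d2* run from 10.9% to 94.7%, and those in *Gnas* from 36.4% to 54.5%.

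Some stretches had intermediate averages, and many of these were mosaics. Of 3084 stretches with at least 4 CGs, 114 averaged between 35 and 65% in all 8 mice. In 61 of these (53.5%) every CG averaged 20 to 80%, whereas in the other 53 at least 1 CG lay outside that range. The stretch in *Cacna2d2* averaged 54.1% ± 3.46 (SD, n = 8) but its single CGs ran from 10.9% to 94.7%. The CGs of *Mrc2*, a collagen receptor gene, ran from 13.1% to 74.9% around a mean of 55.6%. Those of *Ptges*, which encodes prostaglandin E synthase, ran from 29.5% to 92.4% around 58.6%.

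By contrast, the CGs of the *Gnas* stretch lay between 36.4% and 54.5%. Its mean was 45.0% ± 5.20, from 36.5% in the B6 male to 53.2% in the DBA male, and the parent strains overlapped. The crosses did not, with BXD at 49.5% and 46.8% (female, male) and DXB at 45.6% and 42.1%. Each cross had only a female and a male, and the DBA female and male alone were at 40.8% and 53.2%. The difference between the crosses was not tested, and how often other stretches show such a gap was not counted. *Sorbs3*, which encodes the adaptor vinexin, was as even, with CGs from 46.5% to 60.2%. Its stretch mean varied more among mice, from 36.2% in the B6 male to 64.9% in the DXB female. *Tmem163*, *Map3k1* (a MAP kinase kinase kinase gene), *Lrig3* and *Arsg* had stretch means of 45.6%, 42.2%, 49.2% and 55.2%, and a stretch of Gm20388 had 49.6%. Their single CGs were less even than those of *Gnas* and *Sorbs3*. They ran from 16.6% to 68.9% in *Tmem163*, from 18.5% to 63.8% in *Map3k1* and from 27.2% to 72.2% in Gm20388. In *Lrig3* the range was 18.6% to 97.4% and in *Arsg* 8.48% to 98.7%. Counts per cytosine do not show whether single DNA molecules were fully methylated or unmethylated at these stretches.

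Genes of the liver parenchyma had lower intron levels than introns in general. Of 25 hepatocyte genes on the list, 12 had intron CGs, 74 in all. Their mean was 39.5% ± 2.95 (SD, n = 8) against 64.1% over all intron CGs, and their median CG was at 31.7% against 81.5%. At 5-20 kb the list averaged 48.5% against 64.1%, and beyond 20 kb 48.7% against 73.4%. The bin beyond 20 kb held 19 CGs of 5 genes. The window held 7.17 CGs for the list and 6.06 for all at 5-20 kb, and 4.05 and 5.50 beyond 20 kb.

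*Trf*, which encodes transferrin, had 17 intron CGs at 36.0%, from 28.3% in the BXD male to 44.3% in the DXB female. *Rxra*, a nuclear receptor gene, had 12 at 28.6%, *Ass1*, a urea cycle gene, 10 at 53.6%, and *Hnf4a*, a hepatocyte transcription factor gene, 8 at 41.6%. *Foxa2*, another liver transcription factor gene, stood apart, with 9 CGs at 4.08% about 1957 bp from its start. In *Ass1* and *Trf* single CGs had a mean SD over mice of 12.7 and 8.72 points, beside 5.68 points over all intron CGs and 10.9 over those at 30 to 70%.

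Developmental regulators had the lowest intron levels of the lists with more than 100 CGs. The 79 genes of the *Hox*, *Pax*, *Sox*, *Lhx*, *Gata* and related families held 744 intron CGs with a mean of 27.5% ± 1.09 and a median of 12.1%. Of these CGs, 338 (45.4%) were at 10% or less, against 14.9% over all intron CGs. They were also CG-rich, with 9.26 CGs in the window against 6.28, and near the start, with a median distance of 6236 bp. At 5-20 kb the list averaged 20.5% against 64.1% for all, and beyond 20 kb 59.3% against 73.4%. *Lhx2* had 45 CGs at 8.10% and *Gata4*, active in heart and gut development, 37 at 8.67%. *Pax7*, of muscle and neural crest, had 34 at 20.6%, and *Pax2*, of the kidney, 30 at 39.6%. *Sox5*, of cartilage, was the exception among the 5 largest, with 31 CGs at 85.8% and a median distance of 506572 bp.

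The other lists had means closer to that of introns in general or rested on few genes. Neuronal genes (23 genes, 458 CGs) averaged 63.9% ± 1.03, with *Rbfox3* at 53.7% over 70 CGs and *Ank3* at 83.6% over 42. Their median distance was 229714 bp, against 31036 bp over all intron CGs. Beyond 20 kb, 424 of the neuronal CGs averaged 65.4% against 73.4% for all. At 1-5 kb 20 CGs averaged 19.2% against 33.6%, and at 5-20 kb 14 CGs averaged 83.8% against 64.1%. The 6 endothelial and stellate genes had 29 CGs at 70.9%, from *Pecam1*, an endothelial adhesion gene, at 93.5% over 10 CGs to *Col1a1*, a collagen gene, at 10.8% over 6. The 5 immune genes averaged 30.9%, but 48 of their 56 CGs were those of *Runx1*.

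Hosts of imprinted transcripts (16 genes, 124 CGs) averaged 54.1% ± 3.47. *Igf2r*, which encodes the receptor that clears the growth factor IGF2, had 10 intron CGs between 29.8% and 46.0%. Its mean in female and male was 34.4% and 25.2% in B6, and 27.2% and 28.0% in DBA. The F1 mice were all higher, at 43.8% (BXD female), 38.0% (BXD male), 46.7% (DXB female) and 46.8% (DXB male). In *Grb10*, a gene of a growth inhibiting adaptor, the 4 parents ran from 18.6 to 33.3% and the 4 F1 mice from 36.1 to 49.8% over 12 CGs. *Trappc9* ran from 59.4 to 68.4% in the parents and from 71.8 to 75.1% in the F1 mice over 22 CGs. In *Kcnq1*, a potassium channel gene, the parents ran from 72.4 to 79.8%, and the F1 mice were just above, up to 81.0%. All F1 mice were thus above all parents in 4 of the 6 genes of the list with at least 8 intron CGs, and all below in 0. Of all 1602 genes with at least 8 intron CGs, 42 (percent 2.62) had all F1 mice above all parents and 38 (2.37) all below. The list was chosen with earlier results known, and the difference was not tested. Covered CGs reached 50 bases in the F1 mice other than the BXD male, and 75 or 99 bases in the parents. The part of this reach was not tested. In *Blcap*, 11 CGs averaged 1.67%.

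Single intron CGs varied most among mice where the level was intermediate. The median SD over 8 mice was 4.56 points, and 14.6% of intron CGs had an SD of 10 points or more, against 3.44 points and 11.8% over all autosomal CGs. Intergenic CGs were much like introns, at 4.71 points and 14.5%, and the median SD of promoter CGs was 1.31 points. By level, the median SD was 1.43 points at 10% or less, 8.06 at 10 to 30%, 9.73 at 30 to 70%, 6.34 at 70 to 90% and 2.83 at 90% or more. Observed variance was 2.32 times the variance that binomial counting of the reads would give, 1.76 times at 10% or less and 2.87 times at 30 to 70%. At 30 to 70% the median SD was 9.57 in intergenic DNA, 9.83 in promoters and 10.5 in coding exons, and in introns it was between 9.43 and 10.2 in each of the 7 distance bins. With the reads of each CG thinned to those of its least covered mouse, the median SD over all intron CGs rose to 6.64 points.

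Pairs of F1 mice from different crosses were closer on average than B6 and DBA mice. Pairs share mice, and the values are descriptive. Depth differed too, with median reads per intron CG of 34 and 39 in the DBA mice and 65 to 178 in the F1 mice. The part of depth was not tested. Over intron CGs the mean absolute difference was 4.58 to 5.16 points between F1 mice of different crosses, 6.10 to 8.02 points between B6 and DBA mice, and 4.84 to 8.11 points between the female and the male of a strain or cross. Between a parent and an F1 mouse it was 4.47 to 8.42 points. The widest pair of 1 strain was thus as far apart as the widest pair of the parent strains. Differences above 50 points were found at 11 to 48 intron CGs between F1 mice of different crosses and at 191 to 313 between B6 and DBA mice. The mean absolute deviation from the average of the 8 mice was largest in the DBA male (5.85 points) and the B6 male (5.28), and smallest in the BXD male (3.13), the library with the most reads per CG.

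**Figure D3:**
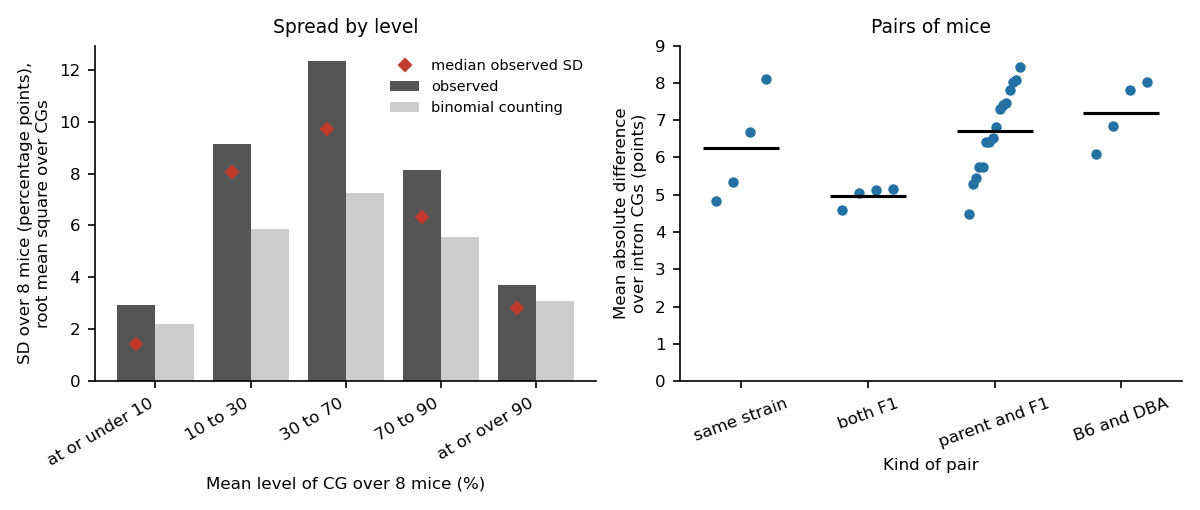
Left, root mean square SD over 8 mice (dark bars) and the SD that binomial counting would give (light bars), in percentage points, for intron CGs by mean level, with the median SD as diamonds. Right, mean absolute difference in points for each pair of mice (points) by kind of pair, with the mean as a line. Observed spread exceeds counting in every class, and pairs of F1 mice of different crosses lie between 4.58 and 5.16 points.

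The 6 intron CGs with the largest SD that were not called for strain fell into recognisable patterns. At 1 CG of *Pot1b*, a telomere protein gene, levels in female and male were 96.5% and 0% in B6, and 0.909% and 9.09% in DBA. There the F1 mice were at 96.2% (BXD female), 52.9% (BXD male), 98.1% (DXB female) and 92.5% (DXB male). At CGs of *Tmem132d* and Gm454, B6 mice were at 87.9 to 96.2% and DBA mice at 0 to 5.71%. The BXD male was at 48.1% and 43.8% there, while the other 3 F1 mice were at 88.2 to 100%. At a CG of *Pvrl2*, a cell adhesion gene, parents were at 80% or more and the BXD male at 92.5%, but the other 3 F1 mice at 12.7 to 32.4%. The remaining CGs were a pair in *Cgn* that were called for sex.

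In each of these 4 CGs the BXD male stood apart from the F1 mice whose covered CGs reached 50 bases. Among the 342 uncalled intron CGs with an SD of at least 20 points, the BXD male was at least 20 points above all of these 3 mice at 47 and at least 20 points below all of them at 17 (18.7% together), against 0.428% of all 41313 uncalled intron CGs. This is a description, since the CGs were chosen for their spread over the same mice. Depth and reach differ between the same libraries, and the part of either was not tested.

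Strain differences were rare among intron CGs, and most were higher in B6. Over the 8 mice, each CG was fitted with a quasi-binomial model of methylated and unmethylated reads on the number of B6 chromosome copies (2 in B6, 1 in F1, 0 in DBA). A CG was called at a Benjamini-Hochberg adjusted p below 0.05, over all 173739 CGs, with at least 20 points between the parent means. This called 160 intron CGs (0.386%) in 129 genes, against a percent called of 0.276 over all autosomal CGs. Higher in B6 were 130 (background 0.237) and higher in DBA 30 (background 0.0391). Shares were 0.481% in intergenic DNA, 0.327% in coding exons and 0.0317% in promoters, without a test between them.

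Without the B6 male the count was 244 (196 higher in B6, 48 in DBA), and over the 8 fits that leave out 1 mouse it ran from 114, without the DBA female, to that number. The direction higher in DBA rested more on single mice, with 12 CGs without the DBA female and 18 without the B6 female. In a fit of the 4 parents alone, with sex as the block, 355 intron CGs were called, and with sex as a second term in all mice 155 were. By distance, calls were 2 of 3635 CGs at 1-2 kb (0.0550%), 18 of 3875 at 2-5 kb (0.465%), 12 of 3903 at 5-10 kb (0.307%) and 16 of 5371 at 10-20 kb (0.298%). They were 47 of 8410 at 20-50 kb (0.559%), 29 of 6178 at 50-100 kb (0.469%) and 36 of 10101 beyond 100 kb (0.356%).

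By the rule of the study, which asks for a difference above 50 points and for exact 95% binomial intervals that exclude the other mouse, 227 intron CGs differed between the female parents (background 0.361) and 191 between the male parents (background 0.326). The backgrounds by direction were 0.321 (higher in B6) and 0.0397 (higher in DBA) in females, and 0.244 and 0.0817 in males. Both pairs of parents gave the same direction at 125 intron CGs in 109 genes (background 0.191), 116 higher in B6 (background 0.183) and 9 in DBA (background 0.00806). In windows of 100 kb where at least 50% of the sorted cytosine calls of the B6 male were DBA, 25 of 2406 intron CGs differed between females and 11 between males. In other windows with at least 20 sorted cytosine calls, 149 and 137 of 13691 did. The remaining 25376 intron CGs lay in windows with fewer sorted cytosine calls and could not be placed, with 53 and 43. The binomial intervals cover counting error only.

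CGs higher in B6 and those higher in DBA looked different. Among the 130 called CGs higher in B6, the median level was 89.2% in B6 and 0.572% in DBA, and 91 were at 5% or less in both DBA mice. Their neighbours within 50 bp changed little, with a median difference of 5.48 points, and 32 of 126 had neighbours that averaged at least 20 points in the same direction. Among the 30 CGs higher in DBA, the median was 21.1% in B6 and 72.6% in DBA, and 1 was at 5% or less in both B6 mice. Their neighbours moved along, with a median of 30.1 points, and 19 of 26 reached 20 points. The positions of strain variants were not used here, and the reference is B6, so that a CG lost from DBA DNA and a CG present but unmethylated in DBA cannot be told apart.

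F1 mice lay near the middle of their parents at these CGs. Over the 125 intron CGs called in both pairs, the F1 level minus the mean of the 4 parents was 3.34 points in the BXD female, -0.995 in the BXD male, 2.00 in the DXB female and 2.03 in the DXB male. Between 122 and 125 of the 125 CGs lay between the parent strains in each F1 mouse. With the 92 CGs at 5% or less in both DBA mice left out, 33 remained, with differences from -0.294 to 3.54 points. Where F1 reads could be sorted to both chromosomes at 10 reads each, at 60 to 86 of the CGs, the B6 and DBA chromosomes differed in the direction of the parents at every CG, with medians of 84.4 to 88.2 points.

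Sequences of 4 strain stretches are shown because they hold an isolated difference (*Rtkn2*) and joint differences of neighbouring CGs (the others), with called CGs in capitals (NCBIM37, plus strand, 5′ to 3′). In *Rtkn2* (chr10:67495104-67495169) and *Slc7a8*, an amino acid transporter gene (chr14:55359120-55359177), B6 was higher. In *Plac8* (chr5:100986060-100986124) and *Capn5*, a calpain gene (chr7:105287929-105287983), DBA was higher.
Rtkn2: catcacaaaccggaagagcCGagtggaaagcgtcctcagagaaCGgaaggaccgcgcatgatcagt
Slc7a8: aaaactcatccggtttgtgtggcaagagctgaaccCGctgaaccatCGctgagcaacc
Plac8: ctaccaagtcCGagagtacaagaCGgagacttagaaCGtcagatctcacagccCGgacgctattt
Capn5: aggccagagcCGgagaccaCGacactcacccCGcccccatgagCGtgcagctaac

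The *Rtkn2* stretch shows an isolated difference. Its 2 called CGs, 25 bases from first to last, averaged 98.4% and 97.6% in B6 (female, male) and 0% and 9.68% in DBA. F1 mice were at 45.3%, 60.8%, 52.1% and 49.1% (BXD female, BXD male, DXB female, DXB male), between the strains without overlap. That is a description, since the F1 values entered the model that called these CGs. The difference of B6 minus DBA was 93.2 points, with adjusted p from 5.90e-05 to 0.000431 in the quasi-binomial model. The 4 other CGs of the stretch, interleaved with these, differed by -1.32 to 2.12 points.

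Pairs of called CGs were also found in *Polr1a*, which encodes the large subunit of RNA polymerase I, with 96.1% in B6 and 8.87% in DBA, and in *Sel1l2*, with 84.2% and 0.541%. In *Polr1a* the third CG of the stretch was at 100% in both strains. *C530008M17Rik* had 89.0% and 2.18%, *Slc7a8* 89.6% and 8.74%, and *Hivep2*, a zinc finger gene, 65.4% and 3.13%. The remaining CG of *Slc7a8* was also higher in B6, by 39.8 points, and those of *C530008M17Rik* by 1.06 and 29.0 points. *Aox3l1*, an aldehyde oxidase gene, had 31.1% in DBA and 63.9 points more in B6, and *Gnptab*, which helps to tag lysosomal enzymes had 86.1% and 26.9%, so that in both genes DBA kept some methylation. In *Aox3l1* the 4 other CGs differed by 32.3 to 61.6 points in the same direction. The leading CGs of *Aox3l1* and *Slc7a8* had adjusted p of 0.0861 and 0.128 in limma on transformed levels, and no named strain CG changed direction in any alternative. With 1 mouse left out, the quasi-binomial adjusted p of the leading CG was 0.204 in *Hivep2* without the B6 female and 0.0745 in *Gnptab* without the DBA female. It was 0.0621 and 0.0965 in *Slc7a8* without the DBA female and the DBA male, and 0.0781 and 0.0855 in *Aox3l1* without the B6 female and the DBA male.

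Most of the 6 named stretches higher in DBA differed over neighbouring CGs. In *Plac8*, expressed in placenta and white blood cells, all 4 CGs of the stretch were called within 44 bases, 15150 bp from the gene start. They averaged 11.4% and 16.8% in B6 (female, male), and 86.3% and 90.9% in DBA. F1 mice were at 46.6%, 51.5%, 51.3% and 57.6% (BXD female, BXD male, DXB female, DXB male), and strains and F1 mice did not overlap. Here too the F1 values entered the model that called the CGs. The difference of B6 minus DBA was -74.5 points (adjusted p from 2.74e-05 to 0.00114). The DBA male had 11 reads at each of these CGs.

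*Capn5* had all 4 CGs called within 34 bases, at 26.4% in B6 and 72.6% in DBA. *Unkl*, a zinc finger gene, had 9.12% and 73.3%, and *Zfp704* had 41.0% and 92.7% over 4 CGs that span 314 bases. *Lphn3*, a latrophilin gene (4.10% and 34.2%), and *Plec*, which encodes the cytoskeletal linker plectin (12.4% and 38.0%), had smaller differences. In *Plec* the called CGs were 2 within 6 bases, and B6 minus DBA at the 3 other CGs ran from -19.1 to 1.43 points. The *Lphn3* CG lost its call when the B6 female, either DBA mouse, the BXD female or the DXB female was left out, with adjusted p from 0.0544 to 0.128, and also in limma (adjusted p = 0.134). In *Capn5* the leading CG had an adjusted p of 0.109 without the DBA female.

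**Figure D4:**
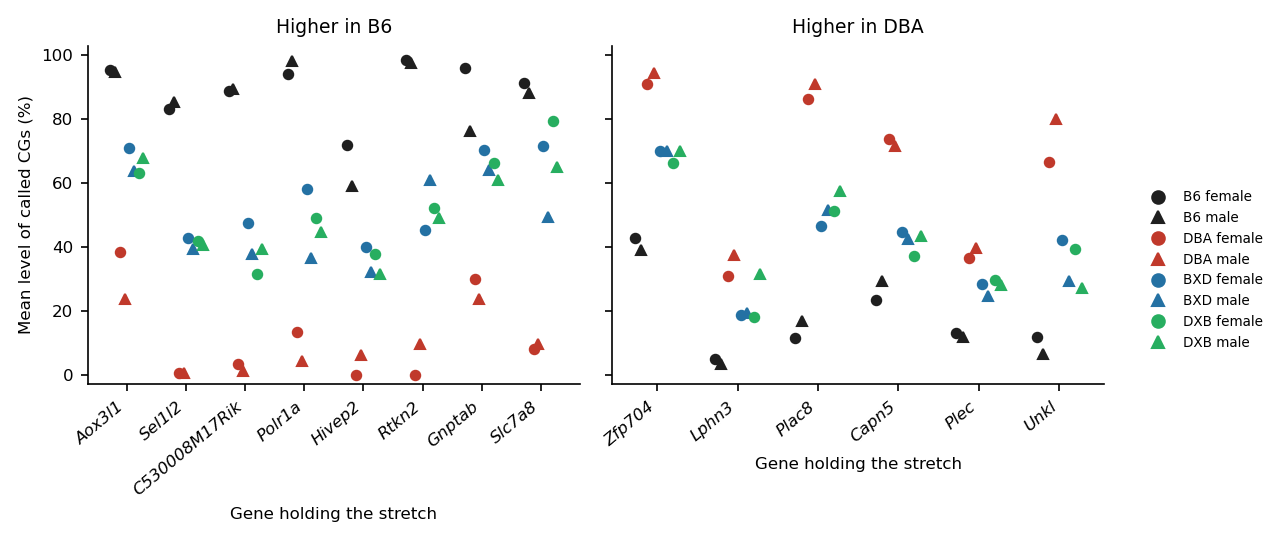
Mean methylation level (%) of the called CGs of each named stretch, 1 point per mouse (colour for strain, circle for female, triangle for male), for stretches higher in B6 (left) and higher in DBA (right). The mean of the F1 mice lies between the strain means in all 14 stretches, with the DXB male above the DBA female in *Lphn3*. This is a description, since the model that called these CGs used the F1 values, with F1 mice at 1 B6 copy. B6 mice lie between 58.9 and 98.4% on the left, and between 3.20 and 42.8% on the right.

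Sex differences in introns were few and had 1 direction. The same model with sex in place of strain called 23 intron CGs in 12 genes, all higher in females, against a percent called of 0.0213 over all autosomal CGs and a share of 0.0555% in introns. No CG, intron or other, was called as higher in males by the quasi-binomial model. At an unadjusted p below 0.05, 17 intron CGs were at least 20 points higher in males in that model and 22 in limma. On the 22 CGs described here, females averaged 55.3 to 98.2% with a median of 85.2%, and males 17.8 to 64.2% with a median of 38.6%. The lowest female was above the highest male at all 22. This is a description, since the same values called these CGs for sex, and the share over all intron CGs was not counted.

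The count was sensitive to single mice. It was 34 without the B6 male, 9 without the B6 female, 7 without the BXD female and 5 without the DXB female, and limma on transformed levels called 1. The sequences of 2 groups of sex CGs, called CGs in capitals, show 4 of the called CGs in *Cgn*, those with the widest differences included, (chr3:94489991-94490115) and those in *Cyp7b1* (chr3:18096537-18096581) (NCBIM37, plus strand, 5′ to 3′).
Cgn: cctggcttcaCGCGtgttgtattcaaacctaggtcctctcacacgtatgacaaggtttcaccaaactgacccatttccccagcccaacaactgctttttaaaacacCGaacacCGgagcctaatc
Cyp7b1: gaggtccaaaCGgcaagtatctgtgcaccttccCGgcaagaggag

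Of the 5 called CGs assigned to *Cgn*, the gene of the tight junction protein cingulin, 2 had the widest differences of all (65.3 and 64.7 points) and the other CGs had 38.8 to 52.9 points. In the annotation used, *Cgn* spans 126 kb and encloses *Selenbp2*, which encodes a selenium binding protein, and the CGs lie 7.37 to 9.90 kb from the start of *Selenbp2* and over 100 kb from that of *Cgn*. At the CG with the widest difference, females were at 89.3% (B6), 87.0% (DBA), 83.3% (BXD) and 86.1% (DXB), and males at 11.1%, 14.9%, 21.3% and 37.1% in the same order. The sexes did not overlap at this CG, which was called for sex on these values, whereas strains did. Females minus males was 65.3 points (adjusted p = 0.00475 in the quasi-binomial model). The adjusted p rose to 0.0858 without the BXD female and to 0.0743 without the DXB female, with the difference at 66.3 and 65.4 points.

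*Cyp7b1*, an oxysterol hydroxylase of bile acid and steroid metabolism, had 2 such CGs in an intron about 46767 bp from its start. At the CG with the wider difference, females were at 100%, 99.2%, 95.9% and 97.7% (B6, DBA, BXD, DXB) and males at 60.9%, 16.7%, 46.4% and 53.3%. The DBA male had 12 reads there. The difference was 53.9 points (adjusted p = 0.00459), and the call was kept with any single mouse left out, although not in limma (adjusted p = 0.233).

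*Scara5*, a ferritin receptor gene, had 3 CGs, with differences of 45.1 to 55.7 points. Its steadiest CG was at 73.0% ± 5.20 in females and 18.1% ± 2.71 in males (SD, n = 4 each). *Insr*, the insulin receptor gene, had 3 CGs with differences of 41.7 to 52.1 points, and *Aox1*, another aldehyde oxidase gene, had 2 with 34.8 and 45.9 points. *Arhgap42* (55.6 points), *Adipoq*, the adiponectin gene (41.3 points), *Ptprf*, a receptor phosphatase gene (39.3 points), and *Phf20*, a chromatin reader gene (41.5 points), had 1 CG each, as did the model Gm20388 (51.2 points). *Zmynd8*, also a chromatin reader gene, had 2 with 31.4 and 30.8 points. The call of *Arhgap42* was lost without the B6 female (adjusted p = 0.232 in the quasi-binomial model), the BXD female or the DXB female, and that of the *Scara5* CG with the widest difference also without either DBA mouse, either of the F1 females or the DXB male.

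**Figure D5:**
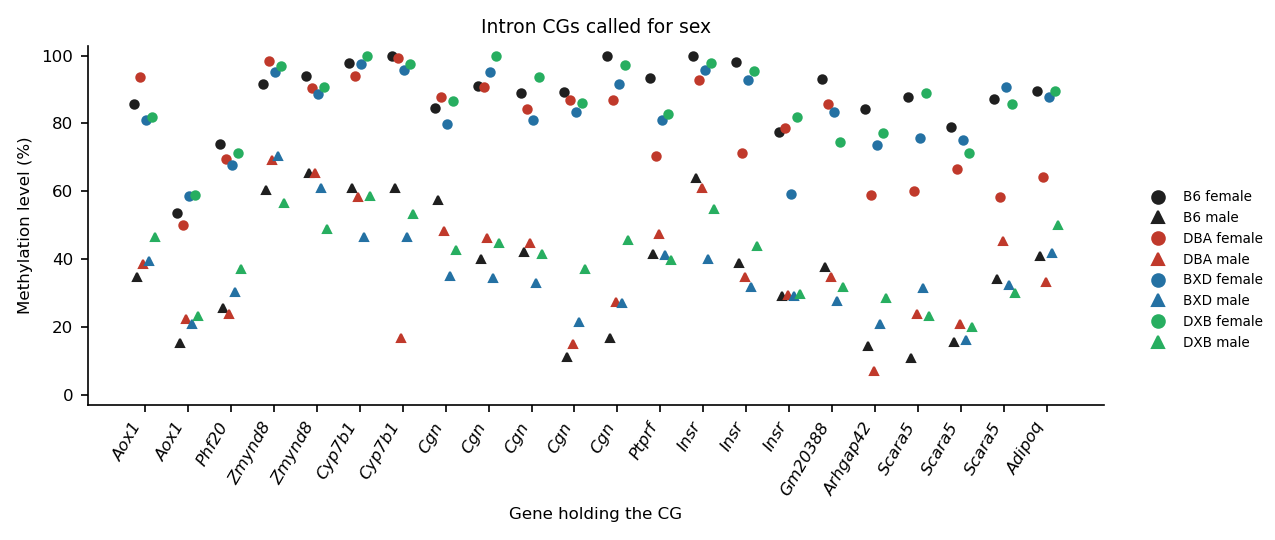
Methylation level (%) of each of the 22 intron CGs called for sex, 1 point per mouse, with circles for females, triangles for males and colour for strain. Every female lies above every male at each CG, which is a description, since these values called the CGs for sex.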

How the data were processed

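RRBS was made by the authors from the livers of 8 mice, 1 female and 1 male of each strain or cross. The authors aligned reads to mm9 with BS Seeker (version not stated), kept unique alignments, and deposited counts of methylated and unmethylated reads for each cytosine, apart for reads sorted to B6, to DBA and to neither. The authors also deposited 4 tables of their own comparisons, with levels, intervals, differences and p-values, which were not used. The reads themselves were not analysed here.

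Counts were summed over classes of reads, and levels were taken as percentages. CGs needed at least 10 reads in all 8 mice, and each strand was a cytosine of its own. Positions are 1-based on NCBIM37 (mm9), genes are those of GENCODE M1, and the gene of a CG is the protein-coding gene that holds it and starts nearest. Means over CGs were compared within mice by exact two-sided paired permutation tests, with Benjamini-Hochberg adjustment. Strain and sex were tested by a quasi-binomial model, with dispersions moderated by limma 3.58.1 in R 4.3.3 and held at 1 or more. On simulated data for the strain comparison over 173739 CGs, the model with the minimum difference of 20 points called 72 of 100 CGs changed by 40 points, 96 of 100 changed by 60 points, and 2 unchanged CGs. For sex it called 95 of 100, 100 of 100 and 0. limma on arcsine levels recovered 3 and 9 of 100 for strain and 35 and 66 of 100 for sex. Only CGs at intermediate pooled levels were changed in the simulation, and the same extra spread was drawn for every CG. Recovery at other levels or spreads was not simulated. On the real data the strain count of limma lay between 114 and 164, beside 160 in the quasi-binomial model. The replicate numbers stand for the sexes, and no label ties them to a litter or batch.

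Members and lists were chosen with earlier results of these data known. Named stretches had at least 8 CGs at 10% or less in every mouse (the 10 farthest from the start), at least 4 CGs between 35 and 65% (the 10 with most CGs), or at least 2 strain calls in the same direction (up to 8 a direction). In addition, the 6 CGs with the largest SD, the CGs called for sex and up to 5 genes a list with at least 8 intron CGs were named. Chromosome 18 was left out of these. The sex calls beyond the 6 widest, the *Igf2r* and *Col1a1* values and the *Pkhd1* stretch were chosen after their values were seen. With 10 reads a level moves in steps of 10 points. Python 3.11.15, numpy 2.4.6, pandas 2.3.3, scipy 1.17.1 and matplotlib 3.10.9 were used.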

Additional observations from a re-analysis of the deposited data

Results flagged for a closer look

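One of 75 sets of 8 mouse values examined for a single value apart from the rest stood out. The 48 intron CGs of *Runx1* averaged 27.8% in the DBA male and 25.9 to 26.5% in the other 7 mice, a gap beyond the 95% critical value of Dixon's test. Chance flags about 1 in 20 such sets.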

How the results depend on the processing

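Counts of calls moved with the minimum of reads. At 5 reads the strain count was 278 (242 higher in B6), with 488 CGs between female and 604 between male parents, and the median SD at 30 to 70% was 11.3 points. At 20 reads it was 70 (55 in B6, 15 in DBA), with 78 and 65 between parents, 7 for sex, a mean level of 63.4% and an SD of 8.15 points. Thinned reads gave median SDs of 6.64 points over all intron CGs and 13.2 at 30 to 70%. Over 1000 bp from any transcript start the mean was 70.6%, introns were 3.57 points above intergenic CGs, and the last distance step was -0.208. Over 2 kb from gene starts the mean was 68.4% and the difference from intergenic CGs 0.946, and the first distance bin could not be formed. Pooled reads gave 1.58 points for that difference and -0.482 for 20-50 against 10-20 kb (exact permutation p = 0.367 and 0.648). Averaged per gene, introns were at 69.6% and differed from coding exons by -1.16, and intergenic CGs have no such value. The cause was not tested.

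With sex as the replicate block in the 4 parents alone, 355 CGs were called (266 in B6, 89 in DBA), and with the block over all mice 155. limma gave 18 higher in DBA and 1 for sex, and a minimum of 50 points 11 higher in DBA. With over 30 points, 680 and 749 CGs differed between female and male parents, and 188 in both, in place of 125. Without CGs at 5% or less in both DBA mice, 33 of the 125 were left. With 1 mouse left out, strain counts ran from 114 to 244 (101 to 196 in B6, 12 to 48 in DBA) and sex counts from 5 to 34. Over the alternatives, the 14 named strain CGs kept their call in 252 of 269 values and the 6 named sex CGs in 66 of 84, and none reversed. These values are not all new fits. Alternatives that changed only which CGs were counted or the minimum difference reused the main fit, where a named CG has the same p. Leaving out single F1 mice, Gm20388 or the DBA-tagged windows of the B6 male were alternatives chosen after seeing the data.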
